A study of Mus musculus with 6 samples.

Results

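Hedgehog signalling was examined through 9 genes, namely the ligands Shh, Ihh and Dhh, the receptor Ptch1, the signal transducer Smo, the ligand-binding inhibitor Hhip and the transcription factors Gli1, Gli2 and Gli3. They were found by gene symbol among 19938 genes with a symbol of their own on Affymetrix Mouse Gene 1.0 ST arrays. Each of the 9 genes had 1 row in the deposited table. The samples were 3 arrays of Scf-GFP+ cells and 3 arrays of whole bone marrow, each from 5000 sorted cells of young adult C57BL/6 mice. Scf-GFP+ cells came from mice heterozygous for a green fluorescent protein knocked into the stem cell factor gene, Kitl, and were sorted a second time, while whole marrow came from wild-type mice. Cell population, genotype and sorting therefore changed together between the groups. Sex was unbalanced too, as read from Xist and the Y-linked Eif2s3y. Scf-GFP+ replicates 1 and 2 read as female, and Scf-GFP+ replicate 3 and every whole marrow array as male. The gate takes every marrow cell that makes green fluorescence from this locus, and whole marrow is a mixture in which maturing blood cells prevail.

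Hedgehog proteins are secreted ligands that bind Ptch1 on the receiving cell. Unbound Ptch1 holds Smo inactive. Once Ptch1 is bound, Smo moves into the primary cilium and turns Gli2 and Gli3 from repressors into activators of transcription. Ptch1, Hhip and Gli1 are themselves induced by the pathway, the first pair as negative feedback. In bone, Ihh from growth plate chondrocytes directs cartilage and osteoblast development, and Dhh is best known from Schwann cells and the testis.

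Of the 9 genes, 4 rose in Scf-GFP+ cells, namely Ptch1, Smo, Hhip and Gli3, and none fell. A gene was called at a limma adjusted p below 0.05 with a difference of at least 2-fold. By this rule 16.9% of all genes tested were called, 9.01% higher and 7.89% lower. The median difference of the 9 genes was 0.86 on the log2 scale, beside -0.08 over all genes. No ligand was called, and neither were Gli1 and Gli2. The genes were taken as a known pathway and are not independent of each other, so their count is a description. Differences are given as Scf-GFP+ minus whole bone marrow in log2 units, with limma's standard error (SE). The labels do not say whether replicates came from separate animals. By the sex-linked transcripts given below, Scf-GFP+ replicate 3 came from other animals than replicates 1 and 2. P-values here reflect only how far these samples scatter, and the rest of that scatter may be technical. In bulk samples such as these, fewer cells that make a transcript and less transcript per cell cannot be told apart.

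**Figure D1:**
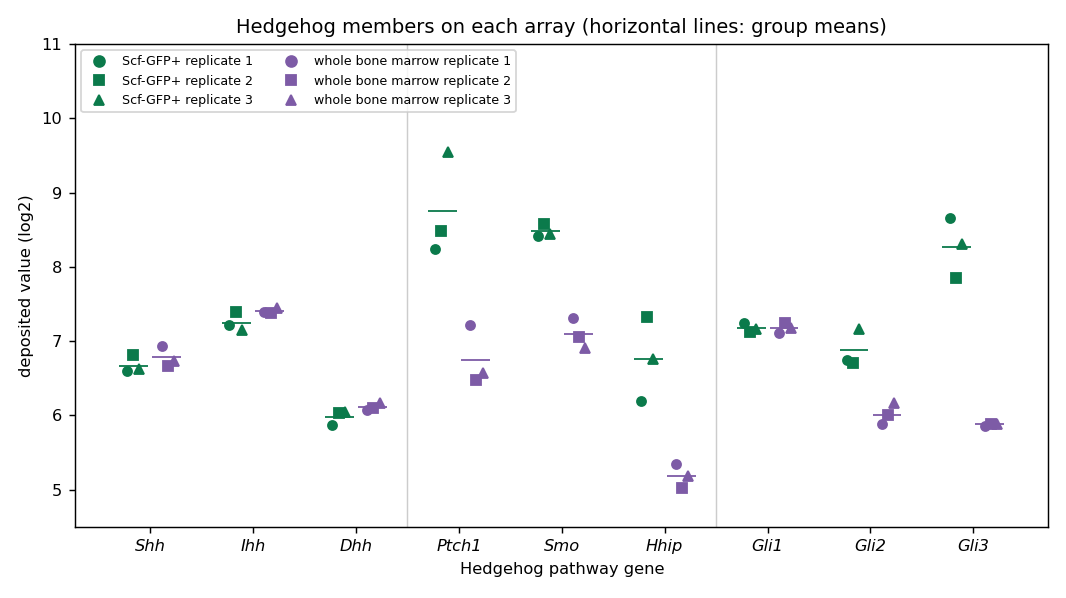
Deposited log2 value (vertical axis) of the 9 Hedgehog genes (horizontal axis) on the 3 Scf-GFP+ arrays (green) and the 3 whole bone marrow arrays (purple), with lines at the group means and grey lines between ligands, receptor-level genes and Gli factors. For Ptch1, Smo, Hhip, Gli2 and Gli3 every Scf-GFP+ array lay above every whole marrow array, while Shh, Ihh and Gli1 overlapped and Dhh was separated by 0.04.

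The ligands were measured at closely similar values in both populations. Shh, the ligand of neural tube and limb patterning, measured 6.60, 6.81 and 6.62 on the Scf-GFP+ arrays and 6.94, 6.67 and 6.73 on the whole marrow arrays. The groups overlapped, and the difference was -0.10 ± 0.12 SE (95% interval -0.40 to 0.19, n = 3 arrays per group, limma adjusted p = 0.579). Ihh measured 7.21, 7.39 and 7.15 in Scf-GFP+ cells against 7.39, 7.38 and 7.44 in whole marrow. These groups also overlapped, with Scf-GFP+ replicate 2 at the level of whole marrow, and the difference was -0.15 ± 0.11 (interval -0.41 to 0.10, adjusted p = 0.347). Dhh measured 5.87, 6.03 and 6.04 against 6.07, 6.10 and 6.16. All Scf-GFP+ arrays lay below all whole marrow arrays, by a gap of 0.04, and the difference of -0.13 ± 0.10 did not pass the test (interval -0.38 to 0.11, adjusted p = 0.389). Groups lay apart in this direction for 26.4% of all genes. The intervals of the ligands all lay within 2-fold in either direction. The deposited values carry no detection call, so they do not show whether a ligand transcript was present in either population.

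Markers of the cells known to make these ligands were counted beside them. Of 9 chondrocyte markers, 8 were not called and 11.1% were called higher, beside 9.01% of all genes. The mean of the list was 6.37 to 6.44 on the Scf-GFP+ arrays and 6.14 on each whole marrow array. The exception was Pth1r, the receptor for parathyroid hormone and its related peptide, which osteoblast-lineage cells also make, at 2.67 ± 0.16 (adjusted p = 4.8e-05). Of 6 measured Schwann cell markers, S100b and Pmp22, which many other cells make, were called higher (33.3%). Sox10, the transcription factor that defines these cells, differed by -0.13 ± 0.12 (adjusted p = 0.471). The mean of the Schwann cell list was 7.48 to 7.66 in Scf-GFP+ cells and 6.25 to 6.51 in whole marrow. The other 4 genes of that list differed by -0.12 to -0.76, the last being Mbp, myelin basic protein (SE 0.17, adjusted p = 0.0184, under 2-fold).

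Smo, Ptch1 and Hhip were higher in Scf-GFP+ cells. Smo, the membrane protein that passes the signal on, measured 8.42, 8.58 and 8.44 on the Scf-GFP+ arrays and 7.31, 7.06 and 6.91 on the whole marrow arrays. The groups lay 1.11 apart and the Scf-GFP+ arrays spanned only 0.16, and Smo rose by 1.39 ± 0.13 SE, or 2.61-fold (interval 1.06 to 1.71, adjusted p = 0.000434). Ptch1 measured 8.24, 8.48 and 9.54 against 7.22, 6.48 and 6.57. Scf-GFP+ replicate 3 stood above the other arrays of its group and whole marrow replicate 1 above its own, yet the groups were 1.02 apart. Ptch1 rose by 2.00 ± 0.37, or 3.99-fold (interval 1.11 to 2.88, adjusted p = 0.00803), and by 1.60 without Scf-GFP+ replicate 3 (adjusted p = 0.00724; 0.00304 to 0.0355 over all alternatives). Hhip, which binds Hedgehog ligands at the cell surface and so limits their action, measured 6.19, 7.32 and 6.76 against 5.35, 5.02 and 5.18. Its Scf-GFP+ arrays spread over 1.13 but stayed 0.85 above whole marrow, and Hhip rose by 1.57 ± 0.28, or 2.98-fold (interval 0.91 to 2.24, adjusted p = 0.00659). Its whole marrow values lay near the lower quartile of the arrays, 5.249 to 5.312, where arrays lose resolution.

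The Gli factors differed in how far the populations lay apart. Gli3, which acts mainly as a repressor when no ligand is bound, measured 8.66, 7.85 and 8.31 in Scf-GFP+ cells against 5.86, 5.88 and 5.89 in whole marrow. No other member had groups so far apart, with a gap of 1.96, and Gli3 rose by 2.40 ± 0.20 SE, or 5.27-fold (interval 1.91 to 2.89, adjusted p = 0.000236). Gli2, the main activator at the start of a response, measured 6.75, 6.71 and 7.16 against 5.88, 6.00 and 6.16. All Scf-GFP+ arrays were higher, by a gap of 0.55. Gli2 differed by 0.86 ± 0.16, or 1.82-fold (interval 0.49 to 1.24), which passed the p-value threshold (adjusted p = 0.00754) but not the 2-fold threshold. On p alone, 13.8% of all genes passed in this direction. Gli1, an activator whose own transcription is a common readout of the pathway, measured 7.25, 7.12 and 7.16 against 7.11, 7.24 and 7.18. The group means were both 7.18 and the interval of the difference ran from -0.24 to 0.24 (adjusted p = 0.990), so that the intervals of Gli1 and of Gli2 or Gli3 did not overlap. Of the 3 pathway-induced members, Ptch1 and Hhip thus rose and Gli1 was not called. As for the ligands, there is no detection call, so the flat Gli1 values do not show whether its transcript was present in either population. Groups were apart with Scf-GFP+ higher for 5 of the 9 members, where 19.0% of all genes were.

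**Figure D2:**
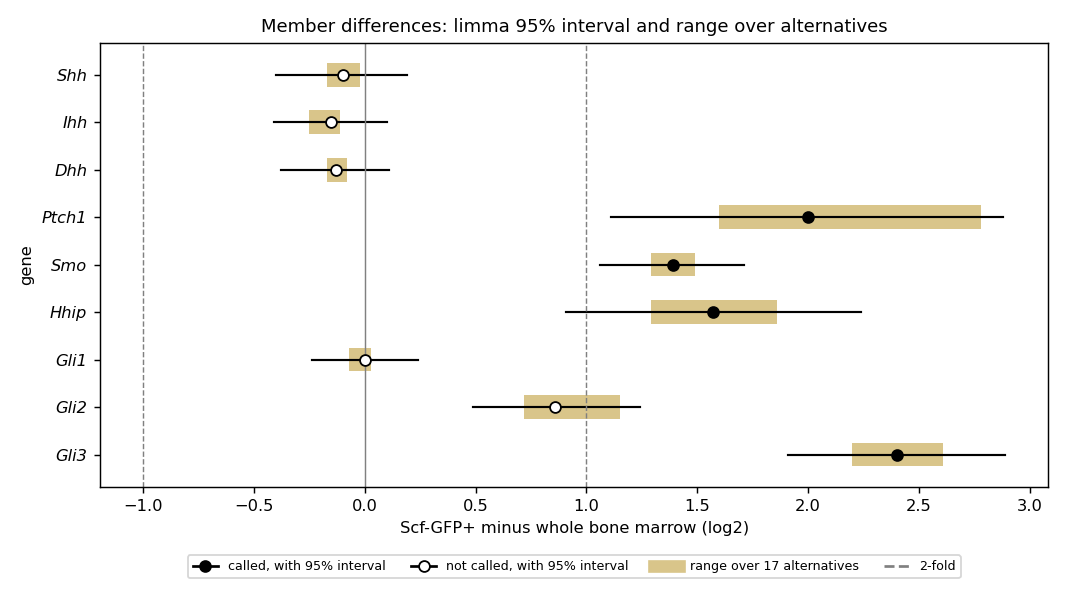
Difference of each Hedgehog gene between Scf-GFP+ cells and whole bone marrow (horizontal axis, log2) with limma's 95% interval (black line), the range over 17 alternative settings (bar) and dashed lines at 2-fold. Filled points are called genes. Ligands and Gli1 centred near 0, Gli2 at 0.86, and the called genes lay between 1.39 for Smo and 2.40 for Gli3.

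Ptch1, Hhip and Gli3 did not vary in parallel within the Scf-GFP+ group. Ptch1 was highest on replicate 3, Hhip on replicate 2 and Gli3 on replicate 1, while Smo spanned only 0.16. The arrays also differed in other transcripts. Xist, made by female cells, measured 11.50 and 11.81 on Scf-GFP+ replicates 1 and 2 and 5.04 on replicate 3, and at most 5.10 in whole marrow. The Y-linked Eif2s3y measured 4.41 and 3.72 on Scf-GFP+ replicates 1 and 2, 8.23 on replicate 3 and 7.33 to 7.97 in whole marrow. The Xist split is thus a split by sex. The mean of 12 endothelial markers was 7.16 and 7.07 on Scf-GFP+ replicates 1 and 2 and 6.49 on replicate 3, beside 6.50 to 6.60 in whole marrow. The mean of 10 neutrophil markers was 9.53 on Scf-GFP+ replicate 1, 5.83 and 6.01 on replicates 2 and 3, and 12.11 to 12.17 in whole marrow. With a term for the Xist split, which sets Scf-GFP+ replicate 3 alone against whole marrow, Ptch1 differed by 2.78 (adjusted p = 0.00304), Gli2 by 1.15 and was called (adjusted p = 0.0078; 0.0049 to 0.0304 over all alternatives), and Hhip by 1.58 and was not (adjusted p = 0.0602; from 0.00206 to 0.0602 over the alternatives). Without Scf-GFP+ replicate 1, Gli3 differed by 2.20, Ptch1 by 2.25, Hhip by 1.86 and Smo by 1.42, and all stayed called. The part of endothelial cells in the spread of these genes was not tested.

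**Figure D3:**
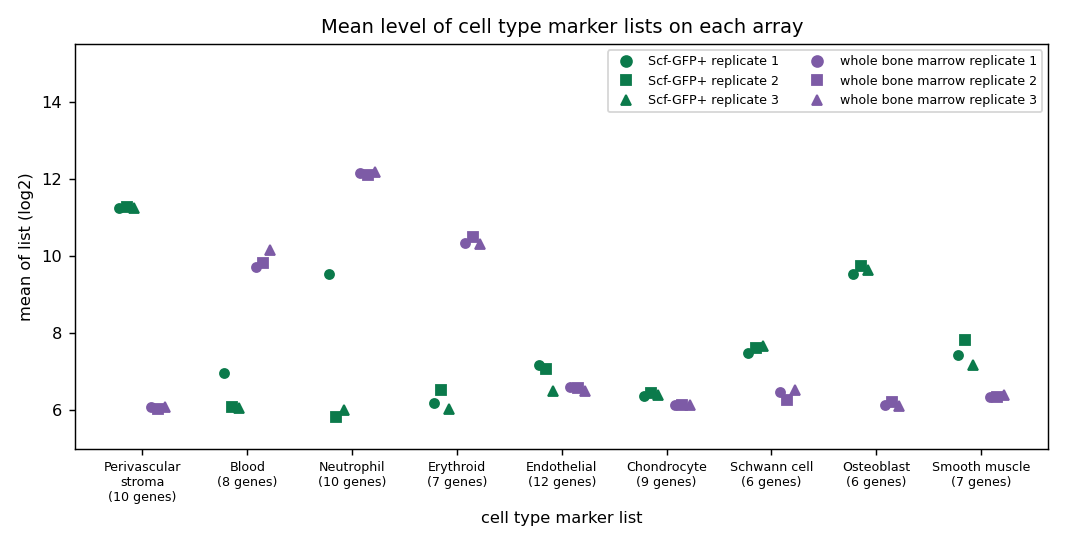
Mean log2 value (vertical axis) of each cell type marker list (horizontal axis) on the 3 Scf-GFP+ arrays (green) and the 3 whole bone marrow arrays (purple). Perivascular stroma markers lay at 11.23 to 11.26 in Scf-GFP+ cells and 6.03 to 6.07 in whole marrow, and the neutrophil list of Scf-GFP+ replicate 1 stood at 9.53.

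The sorted cells were high in Kitl, the gene of their label, and in the other genes listed here as perivascular stroma markers. All 10 perivascular stroma markers were called higher, Kitl and Lepr, the leptin receptor, among them, and all 8 pan-haematopoietic markers lower. Kitl measured 10.83, 10.24 and 10.16 in Scf-GFP+ cells against 4.90, 4.56 and 5.05 in whole marrow, and since the gate reads this locus, its value checks the labels only. Of 12 endothelial markers, 3 were called higher and 2 lower (25.0% and 16.7%, beside 9.01% and 7.89% of all genes).

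RefSeq promoters were available for 7 members (GRCm38.p6), not for Shh and Gli1. The windows upstream of the start site of the 4 called genes are shown because these genes rose. They are printed 5′ to 3′ on the gene's strand and in lower case, with capitals marking the GC box GGGCGG or its reverse complement CCGCCC, a motif bound by Sp factors.
Ptch1 (chr13:63565736-63565985, minus strand): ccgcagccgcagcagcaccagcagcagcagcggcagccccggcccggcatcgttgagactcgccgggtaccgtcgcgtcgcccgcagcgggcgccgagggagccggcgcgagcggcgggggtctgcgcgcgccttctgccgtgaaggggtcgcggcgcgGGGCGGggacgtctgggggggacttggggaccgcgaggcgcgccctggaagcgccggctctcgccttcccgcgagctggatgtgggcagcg
Hhip (chr8:80058009-80058258, minus strand): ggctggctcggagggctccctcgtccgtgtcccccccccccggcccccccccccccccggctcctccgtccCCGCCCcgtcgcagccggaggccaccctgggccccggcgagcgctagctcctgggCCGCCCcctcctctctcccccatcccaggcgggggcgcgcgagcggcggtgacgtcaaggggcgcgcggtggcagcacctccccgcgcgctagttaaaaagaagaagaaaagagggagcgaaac
Smo (chr6:29735247-29735496, plus strand): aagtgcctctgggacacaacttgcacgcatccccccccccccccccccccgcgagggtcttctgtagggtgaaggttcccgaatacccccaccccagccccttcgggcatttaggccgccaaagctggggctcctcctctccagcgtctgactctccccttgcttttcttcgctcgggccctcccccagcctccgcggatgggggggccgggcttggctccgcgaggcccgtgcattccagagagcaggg
Gli3 (chr13:15463473-15463722, plus strand): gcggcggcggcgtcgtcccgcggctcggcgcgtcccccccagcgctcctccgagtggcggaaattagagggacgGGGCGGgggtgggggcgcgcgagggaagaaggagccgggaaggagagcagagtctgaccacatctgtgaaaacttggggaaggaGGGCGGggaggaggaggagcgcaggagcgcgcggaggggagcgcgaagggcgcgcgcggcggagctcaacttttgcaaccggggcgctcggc
The search covered 300 bases around each start site, the 250 before it shown here and 50 after it, on both strands. The GC box was found in 6 of the 7 member promoters, with Smo the exception, and in 35.7% of all 32851 promoters of that length. The Gli motif GACCACCCA was found in no member promoter, and in 0.253% of all promoters. With 1 mismatch allowed it was in no member promoter either and in 6.74% of all. No match says only that these letters are not in this window. The GC content of the 7 promoters was 61.7% to 76.3%, where the median of all promoters was 52.7%, and Ptch1 was the richest.

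Genes with the most similar profile over the 6 arrays were sought for each called member, by the distance between values centred on each gene's mean, among 17026 named genes. For Ptch1 these were Pltp, Pmepa1 and Bmper, at distances of 0.28, 0.50 and 0.50 log2 units. For Smo they were Cers5, Tmtc1 and Tm9sf2 at 0.18, 0.18 and 0.24, and for Gli3 Cpne8, Stk39 and Aqp7 at 0.30, 0.30 and 0.33. For Hhip they were Ndnf, Prr16 and Abhd12 at 0.15, 0.29 and 0.32. Ndnf, a secreted factor, measured 6.18, 7.31 and 6.67 in Scf-GFP+ cells and 5.30, 4.91 and 5.00 in whole marrow, and so was highest on the same arrays as Hhip. With 2 groups of 3 arrays, such likeness is mostly the shared difference between the groups.

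The other genes of the pathway were read from lists of textbook members. Among 9 genes for the release and spread of the ligands, 3 rose and none fell, with a median difference of 0.14. The share called higher was 33.3%, where 9.01% of all genes were called higher and 7.89% lower. The glypican Gpc6, a heparan sulphate proteoglycan of the cell surface, measured 8.88, 8.05 and 9.52 in Scf-GFP+ cells against 6.19, 6.14 and 5.76 in whole marrow, and rose by 2.79 ± 0.36 SE (adjusted p = 0.00159). The glypican Gpc4 rose by 2.48 ± 0.21 (adjusted p = 0.000214) and Ext1, a polymerase of heparan sulphate chains, by 1.38 ± 0.13 (adjusted p = 0.000409). Disp1, the transporter that releases Hedgehog ligands from the cells that make them, differed by 0.09 ± 0.16 (adjusted p = 0.715).

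None of 6 measured genes in the list of co-receptors and other receptors was called, with a median difference of 0.19. Of all genes, 9.01% were called higher and 7.89% lower. Boc, a ligand-binding co-receptor, measured 7.24, 6.77 and 7.02 against 6.33, 6.37 and 6.24. Its groups did not overlap, and its difference of 0.69 ± 0.14 passed on p (adjusted p = 0.0121) but not on size. The related Cdon differed by -0.27 ± 0.11 (adjusted p = 0.136) and Gas1 by 0.29 ± 0.11 (adjusted p = 0.0877). Gpc3, a glypican that binds Hedgehog ligands, differed by 0.08 ± 0.15 (adjusted p = 0.749).

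Of 17 cytoplasmic regulators of the Gli factors, 3 rose and 1 fell, with a median difference of 0.31. The shares were 17.6% higher and 5.88% lower, beside 9.01% and 7.89% of all genes. Prkacb, a catalytic subunit of protein kinase A, which marks Gli factors for processing, rose by 1.57 ± 0.20 (adjusted p = 0.00146). Evc2, a ciliary partner of Smo, measured 7.44, 7.34 and 7.67 against 6.29, 6.47 and 6.31 and rose by 1.13 ± 0.13 (adjusted p = 0.000845). Its partner Evc differed by 0.89 ± 0.11 (adjusted p = 0.00115), under 2-fold. Csnk1a1, a casein kinase, rose by 1.04 ± 0.23 (adjusted p = 0.0153), but lost the call without whole marrow replicate 1 or 3 (adjusted p = 0.0561 and 0.0553; 0.00662 to 0.131 over all alternatives) and, at 0.82, without Scf-GFP+ replicate 2. Arrb2, a beta-arrestin abundant in leukocytes, measured 7.91, 8.15 and 8.23 against 10.82, 10.83 and 11.18 and fell by 2.85 on the log2 scale (SE 0.15, adjusted p = 2.64e-05). Sufu, which restrains Gli factors in the cytoplasm, differed by 0.80 ± 0.17 (adjusted p = 0.0155), under 2-fold.

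Of 25 genes of the primary cilium, the organelle in which the signal is processed, 8 rose and none fell, with a median difference of 0.74. The share called higher was 32.0%, beside 9.01% of all genes, and 7.89% of all genes were called lower. Rab23, a small GTPase that acts as a negative regulator of Hedgehog signalling, measured 9.52, 9.76 and 10.22 in Scf-GFP+ cells against 5.98, 7.70 and 6.76 in whole marrow. The whole marrow arrays spread widely, and Rab23 still rose by 3.02 ± 0.43 SE (adjusted p = 0.0025). Dync2li1, a subunit of the motor that carries cargo back from the ciliary tip, rose by 2.57 ± 0.21 (adjusted p = 0.000208), and Kif3a, a subunit of the motor that carries it out, by 1.72 ± 0.22 (adjusted p = 0.00146). Bbs2, of the complex that sorts ciliary membrane proteins, rose by 1.53 ± 0.31 (adjusted p = 0.011), and with the Xist term it differed by 1.01 and was not called (adjusted p = 0.123, the highest of 17 alternatives, the lowest being 0.0067). Bbs4, at 1.33 ± 0.31 (adjusted p = 0.0202), kept its call in 3 of 6 fits without 1 array. Tulp3, at 1.16 ± 0.21 (adjusted p = 0.00755), kept its call in 5 of 6. In these fits 8 to 9 genes of the list were called higher. Ift80 and Ift140, both of intraflagellar transport, differed the other way by -0.85 ± 0.13 and -0.70 ± 0.14 (adjusted p = 0.00312 and 0.0113), under 2-fold. With the Xist term, which leaves Scf-GFP+ replicate 3 alone against whole marrow, fewer cilium genes and fewer of all genes were called higher.

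Of 21 other textbook targets measured, 2 rose and 1 fell, with a median difference of 0.02. These shares, 9.52% higher and 4.76% lower, lay near the 9.01% and 7.89% of all genes. Bmp4, a bone morphogenetic protein with many other inputs, measured 11.61, 11.72 and 11.87 against 6.24, 6.11 and 6.13 and rose by 5.57 ± 0.11 (adjusted p = 2.01e-06). Tgfb2 measured 8.60, 7.33 and 6.95 against 6.11, 6.26 and 6.19, with Scf-GFP+ replicate 1 the highest. It rose by 1.44 ± 0.40 (adjusted p = 0.0386) and by 0.96 without that array, which is under 2-fold. Its call was also lost without Scf-GFP+ replicate 2 and without whole marrow replicate 1, 2 or 3 (adjusted p = 0.0622, 0.108, 0.0883 and 0.102; 0.00901 to 0.362 over all alternatives), each leaving 1 gene called higher. Cdk6, a cell cycle kinase, fell by 1.32 on the log2 scale (SE 0.24, adjusted p = 0.00683). Ccnd1 differed by -0.41 ± 0.16 (adjusted p = 0.108) and Foxf1, a forkhead target in gut mesenchyme, by -0.11 ± 0.14 (adjusted p = 0.612).

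**Figure D4:**
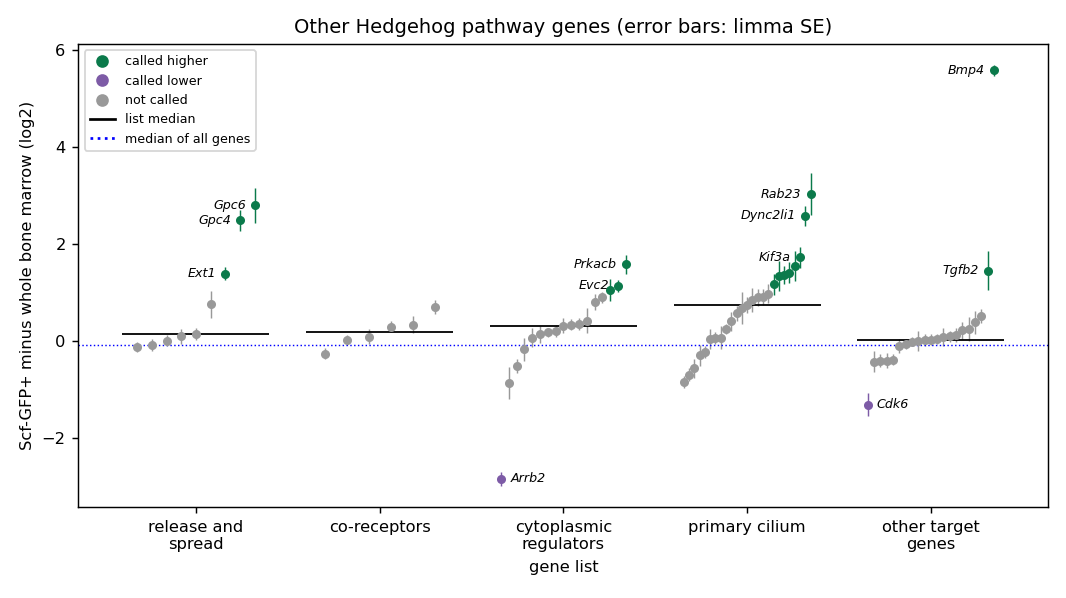
Difference between Scf-GFP+ cells and whole bone marrow (vertical axis, log2) for the measured genes of 5 pathway lists (horizontal axis), with limma's SE, called genes in colour and up to 3 called genes per list named. The cilium list had the highest median of these lists, 0.74, and the median of the targets was 0.02, beside -0.08 over all genes.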

How the data were processed

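Expression was measured on 6 single-colour arrays. The authors deposited log2 values. Limma, affy and RMA, the last a method that equalises quantiles between arrays, are listed in the submitters' processing notes. The build of the array annotation was not given in the sources used here. Values were used as deposited, without further normalization, and the arrays' medians lay between 6.564 and 6.631. The number of arrays limits the precision.

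Of 28940 rows, 21789 had 1 gene symbol, 1621 several and 5530 none. Symbols were updated by Entrez identifier with a RefSeq table (GRCm38.p6), and 91 rows kept their listed symbol. The row with the highest mean stood for each of 999 genes with several rows. Prkaca, Grk2, Arl13b and Pthlh, listed as pathway genes, had no row of their own symbol and were not analysed here.

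All 19938 genes were fitted with limma 3.58.1 (lmFit, eBayes) in R 4.3.3 and adjusted together by Benjamini-Hochberg. The fit was tested on simulated data. Members, lists and tests were chosen with earlier results of these data known. Named genes are the 9 members, up to 4 called genes per list with the largest differences, further genes that describe a list and the 3 nearest genes of each called member.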

Additional observations from a re-analysis of the deposited data

How the results depend on the processing

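Direction and call of the 9 genes were compared under 17 alternatives. As each has 1 row, the alternatives for choosing a row could not change it. Under the other 15, 131 of 135 member values kept their side of the thresholds, 3 gained a call, 1 lost it and none reversed a called direction. Gli2 (0.86) was called with no fold threshold and with a 1.5-fold one, and at 1.15 with the Xist term, under which Hhip (1.58) lost its call. Without each replicate in turn, Gli2 ranged from 0.72 to 0.94, Hhip from 1.29 to 1.86 and the members called higher stayed at 4. With no fold threshold, 2758 genes were called higher and 2635 lower, in place of 1796 and 1574, and 1 co-receptor, 5 regulators, 14 cilium genes and 3 targets were called higher and 2 regulators, 2 cilium genes and 2 targets lower. At 1.5-fold, 2517 genes were called higher and 2255 lower, among them 1 co-receptor, 5 regulators and 13 cilium genes higher and 2 cilium genes lower. With the Xist term, fewer of all genes, of the cilium genes and of the targets were called higher. Without single arrays, 1618 to 1822 of all genes and 1 to 2 targets were. Deviations of same-numbered arrays showed no sign of pairing (correlations -0.063, -0.022 and 0.066, beside -0.087 to 0.108 for unlike-numbered arrays). The labels do not say whether a number marks a shared day or animal. With a replicate block, 1775 genes were called higher and 1563 lower, and 4 members higher. Probe values near the lower end of the arrays limit the sizes given for dim genes such as Hhip.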

Other observations

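Most measured markers of bone-forming cells, and some markers of mural cells, were also higher in Scf-GFP+ cells. Of 6 measured osteoblast markers, 5 were called higher (83.3%, beside 9.01% of all genes). Among them was Sp7, a transcription factor of osteoblast commitment, which measured 8.87, 9.19 and 9.20 against 6.02, 5.65 and 6.16 in whole marrow (difference 3.14 ± 0.17 SE, limma adjusted p = 3.31e-05). Col1a1 was not called, at 0.28 ± 0.10 (adjusted p = 0.0813), and Runx2 and Bglap of that list were not measured. Of 7 smooth muscle and mural cell markers, 3 were called higher (42.9%, beside 9.01% of all genes). They were Rgs5, a regulator of G protein signalling in pericytes, at 3.59 ± 0.39, Notch3 at 1.92 ± 0.21 and Des, desmin, at 1.66 ± 0.16. Acta2, smooth muscle actin, differed by -0.65 ± 0.34 (adjusted p = 0.217) and Cnn1 by -0.22 ± 0.10 (adjusted p = 0.168). Tagln, at 0.64 ± 0.44 (adjusted p = 0.337), and Myh11, at 0.85 ± 0.14 (adjusted p = 0.00463, under 2-fold), were not called either. The mean of the mural list was 7.43, 7.81 and 7.17 on Scf-GFP+ replicates 1 to 3 and 6.34 to 6.39 in whole marrow.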
